A study of Mus musculus with 778 samples.

Results

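The meiotic recombination genes Prdm9, Spo11, Dmc1, Psmc3ip, Mnd1, Meiob, Msh4, Msh5 and Mlh3 were followed through mouse oocyte growth by single-cell RNA-seq. They were taken by name as 9 genes of the double-strand break, strand exchange and crossover machinery, and all 9 were among the 23201 genes counted. Oocytes were picked by hand from the ovaries of wild-type female ICR mice and sorted into 5 stages by diameter. Non-growing oocytes (NGO, under 20 μm) came from mice 3 to 4 days old. Growing oocytes of the GO1 (30 to 45 μm), GO2 (50 to 55 μm) and GO3 (60 to 65 μm) stages and fully grown oocytes (FGO, over 70 μm) came from mice 3 to 4 weeks old, so that growth and the age of the animal cannot be told apart in any comparison with NGO.

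Meiotic recombination starts when SPO11 cuts both DNA strands at sites that the histone methyltransferase PRDM9 has marked. The recombinase DMC1 then helps to pair the broken end with the homologous chromosome, together with the PSMC3IP-MND1 dimer (PSMC3IP is also called HOP2) and by the single-strand binding protein MEIOB, and the MSH4-MSH5 dimer and the endonuclease encoded by Mlh3 turn some of the joined molecules into crossovers. In female mice these steps take place in the fetal ovary, and oocytes are arrested in diplotene from around birth until ovulation, so the stages sampled here lie after the steps in which these proteins are known to act.

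Each stage was treated as 1 pooled sample, since the cells could not be assigned to animals or to the 4 RNA libraries. The table held 46 NGO, 51 GO1, 26 GO2, 44 GO3 and 56 FGO cells, with between 24976634 and 64311908 unique molecular identifiers (UMIs, each 1 captured transcript copy) per stage. Depth per cell was uneven, with a median of 110146 UMIs at the GO1 stage against 540432 to 972294 at the other stages, and the 10 deepest cells held 80.4% of the UMIs at the GO1 stage and 73.2% at the GO2 stage against 42.6% at the NGO stage. The label oocyte was checked on 10 oocyte marker genes, each of which had at least 10 CPM (UMIs per 1000000 UMIs of the stage) in every stage, with a summed level of 13504 to 26004 CPM. The summed level of 9 granulosa cell markers ran from 8.93 CPM (NGO) to 29.04 CPM (GO1), where Cyp19a1 alone had 16.3 CPM, that of 6 stromal markers was 7.98 CPM in NGO and at most 0.653 CPM later, and that of 5 blood markers was at most 0.0748 CPM. The part of these traces in the values below was not tested.

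Levels are given as CPM of the summed counts of a stage, with exact 95% Poisson intervals in the plots and exact 95% intervals on ratios. These intervals cover counting error only, not the spread between animals, and with 1 pooled sample per stage no test was made. CPM is a share of the RNA captured, so a stage difference is a difference in share and cannot be read as a difference in copies per oocyte. A difference was called when it was 2-fold or more and the higher stage had 10 CPM or more. Spo11, Dmc1, Msh5 and Meiob did not reach 10 CPM in any stage, so at most 5 of the 9 members could be called in a comparison with NGO, and 3 of them (Msh4, Mnd1 and Psmc3ip) reached it in the later stages.

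By this rule 3 of the 5 members that could be called were lower in GO1 than in NGO, and none was higher. These were Prdm9, Mlh3 and Mnd1. Over the whole transcriptome 25.7% of the genes with 10 CPM in either stage were called lower in GO1 and 20.6% higher. The higher genes were 44.5% of those called, but 53.2% with TMM scaling and 36.5% without the 10 deepest cells of each stage, so the balance of directions at this step turned with the scaling. From NGO to FGO Prdm9 and Mnd1 were lower, 2 of the 5 that could be called, and none was higher. Of all genes with 10 CPM in either stage 16% were called lower and 11.3% higher. None of the 9 members was called between GO1 and GO2 (3.14% of genes called either way), between GO2 and GO3 (4.35%) or between GO3 and FGO (5.96%). The members thus separated into Prdm9, Mnd1 and Mlh3, with their highest level in NGO, Psmc3ip, with its highest level in FGO, Msh4, which differed by less than 1.5-fold between neighbouring stages in the summed counts, and 4 members at low level.

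**Figure D1:**
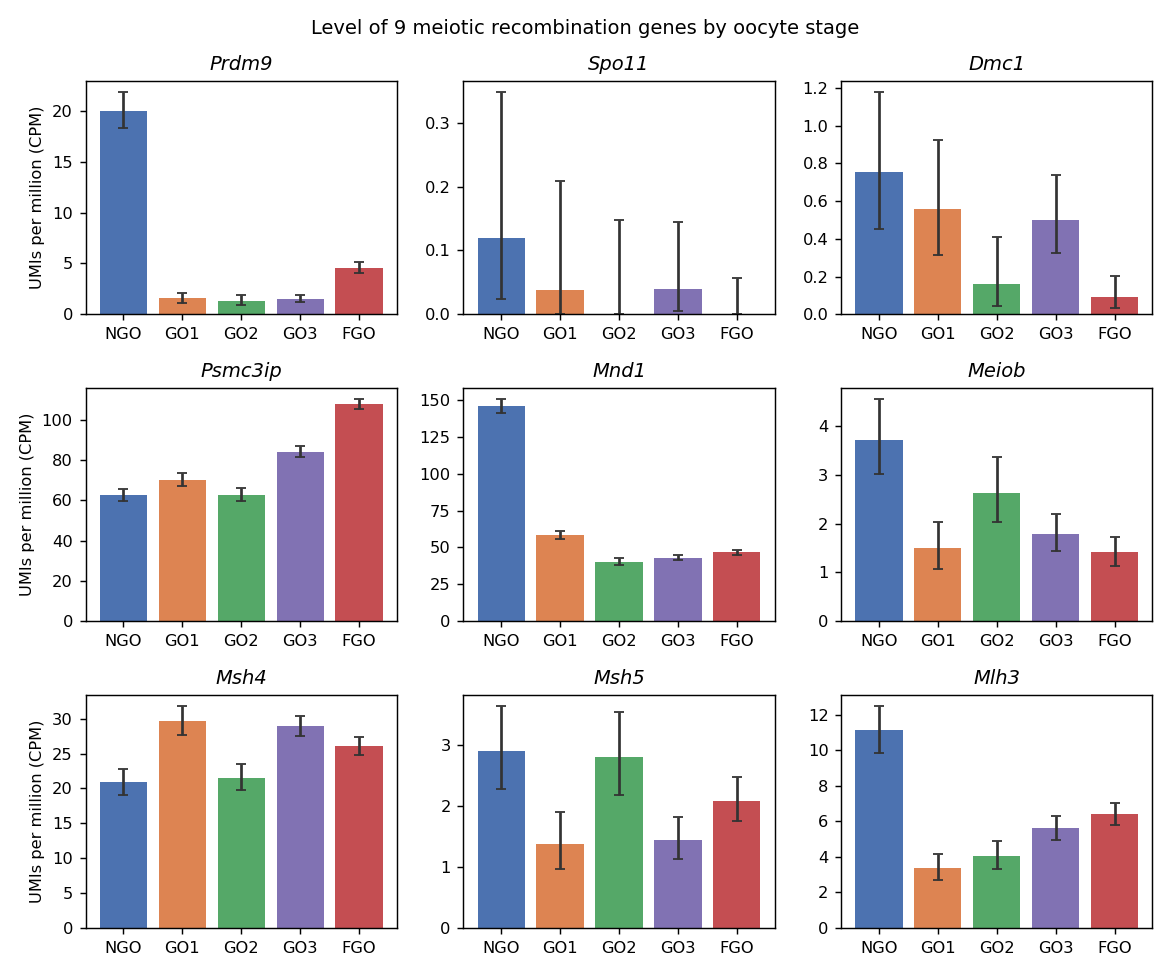
CPM (vertical axis, a separate scale for each gene) of the 9 genes in the summed cells of each stage, with exact 95% Poisson intervals as error bars. Prdm9, Mnd1 and Mlh3 stand highest in NGO, at 20.0, 145.9 and 11.1 CPM, while Psmc3ip stands highest in FGO, at 107.8 CPM, and Spo11 has at most 3 UMIs in any stage.

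Prdm9 encodes the zinc finger histone H3 methyltransferase that sets the positions of recombination hotspots. The gene lies on the minus strand of chr17:15680043-15701318 (NCBIM37, the build named mm9 in the submitters' notes). RefSeq gives it a pair of start sites, and the 250 bases before each are shown because Prdm9 had the widest fold range of level among the members that reached 10 CPM and because the Stra8-type motif was found before only 1 of its starts. Capitals mark matches to TCCCGC (the E2F-type motif) and CNCCTCAG (the Stra8-type motif), searched on both strands, and in the second sequence the motifs share 1 base. The sequences are on the minus strand of GRCm38.p6, at chr17:15563332-15563581 and chr17:15564355-15564604.
Prdm9 start 1: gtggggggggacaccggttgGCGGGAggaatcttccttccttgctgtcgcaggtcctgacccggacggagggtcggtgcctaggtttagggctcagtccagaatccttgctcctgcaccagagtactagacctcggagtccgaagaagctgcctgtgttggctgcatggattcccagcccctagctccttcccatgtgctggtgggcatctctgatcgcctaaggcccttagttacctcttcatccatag
Prdm9 start 2: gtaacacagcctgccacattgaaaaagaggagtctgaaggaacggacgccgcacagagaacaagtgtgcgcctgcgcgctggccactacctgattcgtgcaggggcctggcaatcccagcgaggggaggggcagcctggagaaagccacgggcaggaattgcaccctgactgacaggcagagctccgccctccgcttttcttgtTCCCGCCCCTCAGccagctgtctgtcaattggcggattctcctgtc

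From NGO to FGO, Prdm9 had 504, 42, 33, 75 and 294 UMIs. These are levels of 20.0, 1.57, 1.32, 1.51 and 4.57 CPM. The level was thus high in NGO, low in all 3 growing stages and intermediate in FGO. It was 12.7-fold lower in GO1 than in NGO (interval 9.29 to 17.9), and the ratios of GO2 to GO1 (0.842, 0.517 to 1.36) and of GO3 to GO2 (1.14, 0.747 to 1.77) had intervals that held 1. From GO3 to FGO it was 3.04-fold higher (2.35 to 3.97), below the 10 CPM needed for a call, and FGO remained 4.38-fold below NGO (3.78 to 5.07).

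The same order was seen in single cells. The median over cells was 19.8 CPM in NGO, 0 in GO1 and GO2, 0.277 CPM in GO3 and 4.02 CPM in FGO. Of the GO1 cells, 50 of 51 lay below the NGO median, and so did 54 of 56 FGO cells. The GO1 cell above it had 6 Prdm9 UMIs among 42240 in all, which is 142.05 CPM, and it raised the mean over GO1 cells from 0.631 CPM in the other 50 to 3.40 CPM. With cells weighted equally the log2 ratio of GO1 to NGO was therefore -2.50 in place of -3.67.

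A Prdm9 UMI was found in 43 of 46 NGO cells, 8 of 51 GO1 cells, 9 of 26 GO2 cells, 22 of 44 GO3 cells and 44 of 56 FGO cells. With every cell thinned to 20000 UMIs the counts were 8, 1, 0, 1 and 6 cells, and those of the growing stages are near the level of a single UMI. No cell type that lacks these transcripts was sampled, so the share of cells that stray molecules alone would give is not known for any member. ZCWPW1 reads the histone marks that PRDM9 writes. Its transcript had 66.7 CPM in NGO, 22.8 CPM in GO1 and 21.9 CPM in FGO, and the number of Prdm9 UMIs per Zcwpw1 UMI was 0.300 (NGO), 0.0690 (GO1), 0.0651 (GO2), 0.0647 (GO3) and 0.209 (FGO). Zcwpw1 was thus lower after NGO like Prdm9 but, unlike Prdm9, its level in FGO was not above that in GO3 (23.3 CPM).

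Spo11, the topoisomerase-like enzyme that makes the breaks, lies on the plus strand of chr2:172803201-172819077. It had 3 UMIs in 2 NGO cells, 1 UMI in 1 GO1 cell, 2 UMIs in 1 GO3 cell and none in GO2 or FGO. The 0 UMIs of GO2 allow up to 3 UMIs, or 0.120 CPM, and those of FGO allow up to 0.0466 CPM. In cells, 0 of 26 GO2 cells allow a share of up to 11.5% with a UMI and 0 of 56 FGO cells a share of up to 5.36% when 3 counts are taken as the limit. The exact binomial 95% upper limits were 13.2% and 6.38%. No ratio between stages could be given at this depth. Gm960, the name in the table for the gene of the SPO11 partner TOPOVIBL, was also low, with 0 UMIs in NGO and 4 to 9 UMIs (0.0622 to 0.360 CPM) later.

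Dmc1 encodes the meiosis-specific recombinase and lies on the minus strand of chr15:79391930-79435529. In stage order it had 19, 15, 4, 25 and 6 UMIs, or 0.754, 0.561, 0.160, 0.502 and 0.0933 CPM. A few cells carried much of this, with 6 of the 19 NGO UMIs in 1 cell and all 6 FGO UMIs in 3 cells. FGO was 8.08-fold below NGO with a wide interval (3.10 to 24.7), and GO1 could not be told from NGO (ratio 0.744, 0.352 to 1.54). A Dmc1 UMI was found in 8 of 46 NGO, 7 of 51 GO1, 4 of 26 GO2, 11 of 44 GO3 and 3 of 56 FGO cells, and in no cell once all were thinned to 20000 UMIs.

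Psmc3ip and Mnd1 encode the 2 subunits of one dimer that stimulates DMC1. Psmc3ip lies on the minus strand of chr11:100953137-100956750 and Mnd1 on the minus strand of chr3:83891856-83959708. The 250 bases before each start are shown because the ratio of their transcripts differed most between NGO and FGO, where Mnd1 was called lower and Psmc3ip was higher but not called, with motif matches in capitals as above. They are on the minus strand of GRCm38.p6, at chr3:84155787-84156036 for Mnd1 and chr11:101095436-101095685 for Psmc3ip. The Mnd1 sequence held none of the motifs searched and 8 CpG dinucleotides, the Psmc3ip sequence 1 match to TCCCGC and 19 CpG dinucleotides, against a median of 6 CpG over all 32851 RefSeq promoter sequences of this length.
Mnd1: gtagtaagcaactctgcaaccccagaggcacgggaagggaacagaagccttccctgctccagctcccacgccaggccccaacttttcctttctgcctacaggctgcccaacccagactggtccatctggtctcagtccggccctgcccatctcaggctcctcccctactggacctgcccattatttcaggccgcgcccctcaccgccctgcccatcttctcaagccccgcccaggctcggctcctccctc
Psmc3ip: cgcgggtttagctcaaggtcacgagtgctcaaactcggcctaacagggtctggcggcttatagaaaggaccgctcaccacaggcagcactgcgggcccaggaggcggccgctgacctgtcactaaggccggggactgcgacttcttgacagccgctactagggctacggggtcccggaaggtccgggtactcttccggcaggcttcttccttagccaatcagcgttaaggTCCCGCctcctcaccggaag

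Mnd1 had 3677, 1563, 1010, 2149 and 3003 UMIs from the first stage to the last. These are 145.9, 58.4, 40.4, 43.1 and 46.7 CPM, so that the level was high in NGO and differed little among GO2, GO3 and FGO. GO1 was 2.50-fold below NGO (2.35 to 2.65) and FGO 3.13-fold below NGO (2.98 to 3.28). Psmc3ip had 1575, 1877, 1568, 4192 and 6930 UMIs, or 62.5, 70.2, 62.8, 84.1 and 107.8 CPM. Its level in NGO and GO2 did not differ beyond counting error (ratio 1.004, 0.936 to 1.08), and FGO was 1.72-fold above NGO (1.63 to 1.82), which is short of the 2-fold needed for a call.

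The ratio of the 2 transcripts therefore differed between stages. Protein was not measured, and how well each transcript was captured is not known, so a ratio of 1 need not mean equal copies. There were 2.33 Mnd1 UMIs per Psmc3ip UMI in NGO (2.20 to 2.48). This ratio was 0.833, 0.644 and 0.513 in the growing stages GO1, GO2 and GO3, and 0.433 in FGO (0.415 to 0.452). Mnd1 had more UMIs than Psmc3ip in 44 of 46 NGO cells and Psmc3ip had more than Mnd1 in 47 of 56 FGO cells. In GO1 the cells were split, with Mnd1 ahead in 25 cells and Psmc3ip ahead in 23. The GO1 ratio also depended on depth, at 0.705 in the 10 deepest cells (0.650 to 0.764) and 1.27 in the other 41 (1.12 to 1.45), a split chosen after the data were seen. Without the 10 deepest cells the ratio was 2.61 in NGO, 0.683 in GO2, 0.532 in GO3 and 0.507 in FGO. Mnd1 thus had more UMIs in NGO and Psmc3ip from GO2 on in both counts. The ratio of the transcripts does not depend on how the stages are scaled, since both genes were counted in the same cells.

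**Figure D2:**
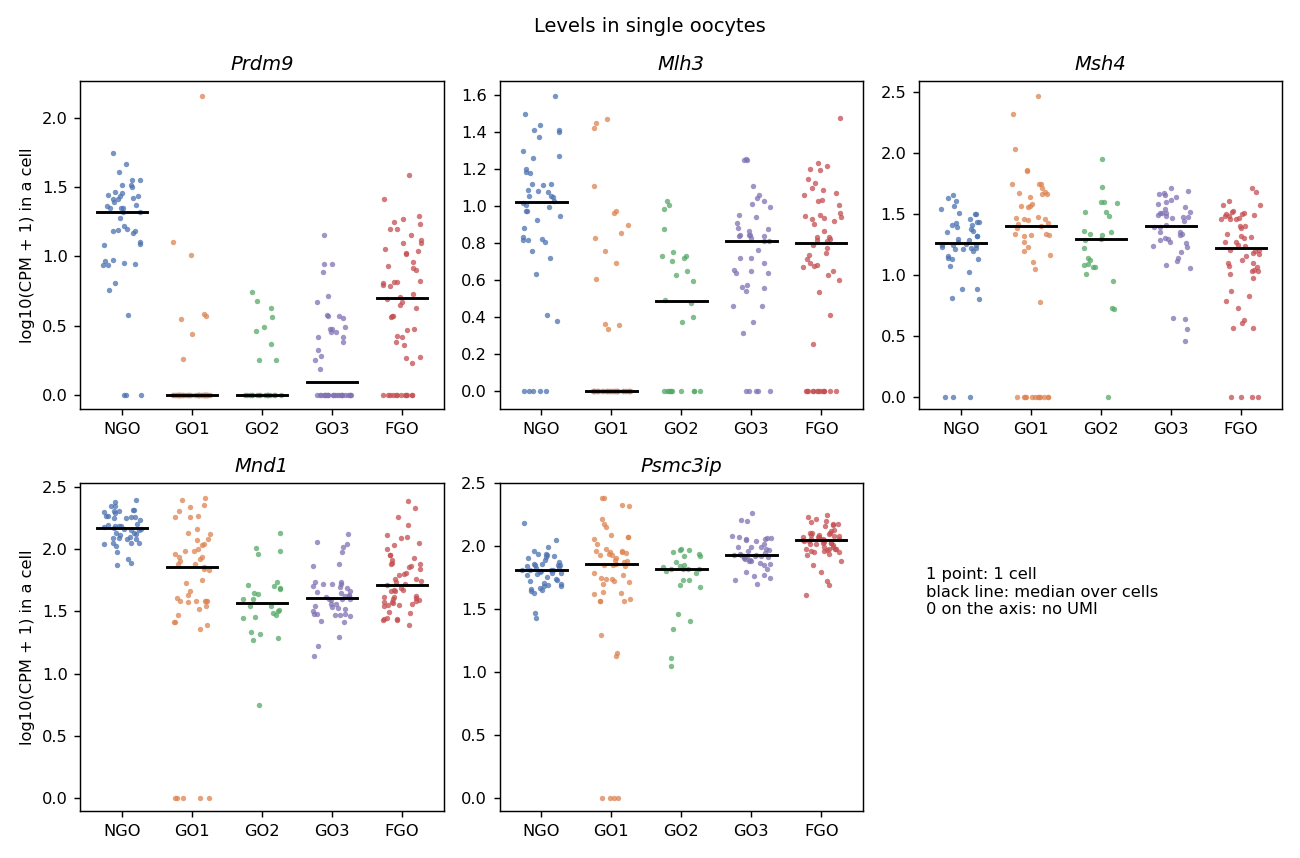
Level of Prdm9, Mlh3, Msh4, Mnd1 and Psmc3ip in each oocyte as log10(CPM + 1) on a vertical axis of its own for each gene, with 1 point per cell and a black line at the median over cells of the stage. For Mnd1, 43 of 51 GO1 cells and 52 of 56 FGO cells lie below the NGO median of 146.9 CPM, and for Psmc3ip 4 of 56 FGO cells lie below the NGO median of 63.5 CPM.

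Single cells gave the same order at the ends of growth. The median for Mnd1 was 146.9 CPM in NGO (lowest cell 73.8, highest 246), 70.7 CPM in GO1 (0 to 256.5), 36.2 CPM in GO2 (4.66 to 133.1), 39.6 CPM in GO3 (12.7 to 130.9) and 50.7 CPM in FGO (23.7 to 240). The ranges overlapped in every stage, the median of each later stage lay below the lowest NGO cell, and the highest GO1 cell lay above the highest NGO cell. The median for Psmc3ip was 63.5 CPM in NGO (25.8 to 152.7), 71.02 CPM in GO1 (0 to 243), 65.2 CPM in GO2 (10.2 to 94.6), 84.05 CPM in GO3 (49.4 to 184) and 110.7 CPM in FGO (40.0 to 175).

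The size of the Mnd1 step from NGO to GO1 depended on which GO1 cells were counted. The 10 deepest GO1 cells had 47.6 CPM of Mnd1 and the other 41 had 102.96 CPM, while the corresponding NGO values were 118.2 and 166.5 CPM. Without the 10 deepest cells of each stage the log2 ratio of GO1 to NGO was -0.69, and with cells weighted equally -0.87, both short of 2-fold, in place of -1.32. In the former setting the step from GO1 to GO2 passed the 2-fold limit instead, at a log2 ratio of -1.19. The log2 ratio of FGO to NGO was -1.64 and stayed between -1.59 and -1.16 in 6 other settings of scaling, weighting and depth. For Psmc3ip, deep and other cells differed less, at 67.5 and 80.99 CPM in GO1 and 99.4 and 116.1 CPM in FGO. Its ratio of GO1 to NGO was near 1 (log2 0.17) and turned to -0.14 when 26 cells were drawn from each stage.

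**Figure D3:**
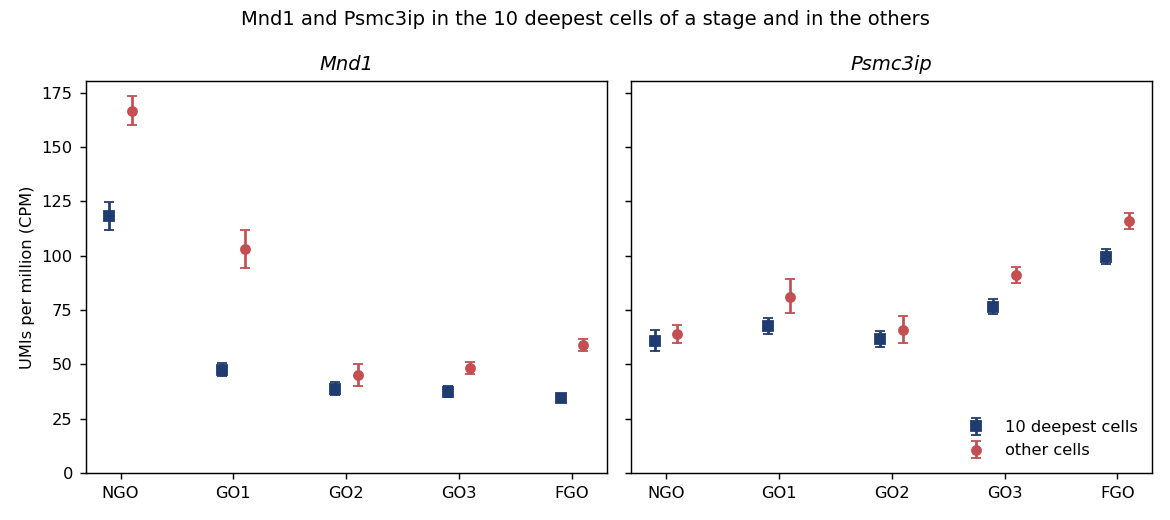
CPM of Mnd1 (left) and Psmc3ip (right) by stage, summed over the 10 deepest cells of the stage (squares) and over the other cells (circles), with exact 95% Poisson intervals. For Mnd1 at the GO1 stage the deepest cells stand at 47.6 CPM and the others at 102.96 CPM, a wider gap than in GO2 (38.8 and 45.0 CPM).

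The 3′ end of Psmc3ip overlaps that of Mlx, a gene of a sugar-responsive transcription factor on the opposite strand, by 385 bases, and whether counting used the strand is not stated, so reads from the shared stretch are uncertain. Mlx had 68.3, 25.9, 23.2, 27.4 and 43.01 CPM in stage order. Its order of stages differed from that of Psmc3ip, with the highest level of Mlx in NGO and the highest level of Psmc3ip in FGO. Of the other members, Dmc1 and Msh4 overlap a small RNA gene each, and the rest overlap no annotated gene.

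Meiob encodes a single-strand DNA binding protein that protects resected ends. It is listed in the annotation under its older symbol 4930528F23Rik, on the plus strand of chr17:24941327-24976732. It had 94, 40, 66, 89 and 91 UMIs from NGO to FGO, or 3.73, 1.495, 2.64, 1.79 and 1.41 CPM, all below the 10 CPM needed for a call. GO1 was 2.49-fold below NGO (1.71 to 3.71) and FGO 2.64-fold below NGO (1.95 to 3.56), while GO2 was 1.77-fold above GO1 (1.18 to 2.69). Spata22, the gene of the protein that MEIOB is bound to in spermatocytes and oocytes, had 0 UMIs in every stage, which allows up to 3 UMIs in each.

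Msh4 and Msh5 encode the subunits of the clamp that stabilises joined DNA molecules. Msh4 lies on the minus strand of chr3:153520111-153569102 and Msh5 on the minus strand of chr17:35165550-35183690. From NGO to FGO, Msh4 had 526, 795, 538, 1441 and 1678 UMIs, or 20.9, 29.7, 21.5, 28.9 and 26.1 CPM. In the summed counts it alternated within a narrow range. GO1 and GO3 were not separated by counting error there (ratio 1.03, 0.941 to 1.12), nor were GO2 and NGO (1.03, 0.913 to 1.17). GO1 was 1.42-fold above NGO (1.27 to 1.59), a log2 ratio of 0.51. In the other settings this log2 ratio ran from 0.58 (without the 10 deepest cells of each stage) to 0.85 (cells weighted equally). The ratio of FGO to NGO was 1.25 (log2 0.32) in the summed counts, but its log2 value was -0.09 with cells weighted equally and -0.02 without the 10 deepest cells of each stage, so no direction is given for it.

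Msh5 was low in every stage. It had 73, 37, 70 and 72 UMIs in the first 4 stages, and levels of 2.90, 1.38, 2.80, 1.45 and 2.08 CPM in all 5, and GO1 was 2.09-fold below NGO (1.39 to 3.20). GO2 was 2.03-fold above GO1 (1.34 to 3.11). A UMI of Msh5 was found in 25 of 46 NGO cells, 8 of 51 GO1 cells, 17 of 26 GO2 cells, 25 of 44 GO3 cells and 32 of 56 FGO cells. The GO1 cells were also the shallowest. With every cell thinned to 20000 UMIs the counts were 2, 1, 1, 1 and 2 cells, too few to order the stages. The number of Msh4 UMIs per Msh5 UMI went through 7.21, 21.5, 7.69, 20.0 and 12.5 from NGO to FGO. The 2 transcripts thus did not keep a fixed ratio.

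Mlh3 encodes the endonuclease subunit that cuts joined molecules into crossovers. It lies on the minus strand of chr12:86575479-86611541. Its UMIs numbered 280 in NGO, 90 in GO1, 279 in GO3 and 411 in FGO, and its levels over the 5 stages were 11.1, 3.36, 4.04, 5.60 and 6.39 CPM. GO1 was 3.30-fold below NGO (2.60 to 4.24), and the level was higher again in GO3 than in GO2 (1.38-fold, 1.10 to 1.76), while FGO was still 1.74-fold below NGO (1.49 to 2.03). The call in GO1 rested on an NGO level just above 10 CPM and was lost with TMM scaling, where the log2 ratio was -1.56 in place of -1.72.

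Of the GO1 cells 47 of 51 lay below the NGO median of 9.52 CPM for Mlh3, and of the FGO cells 43 of 56. A UMI of Mlh3 was found in 41 of 46 NGO cells, 15 of 51 GO1 cells, 16 of 26 GO2 cells, 39 of 44 GO3 cells and 43 of 56 FGO cells. The share of cells was thus lowest in GO1, where the depth per cell was lowest too.

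**Figure D4:**
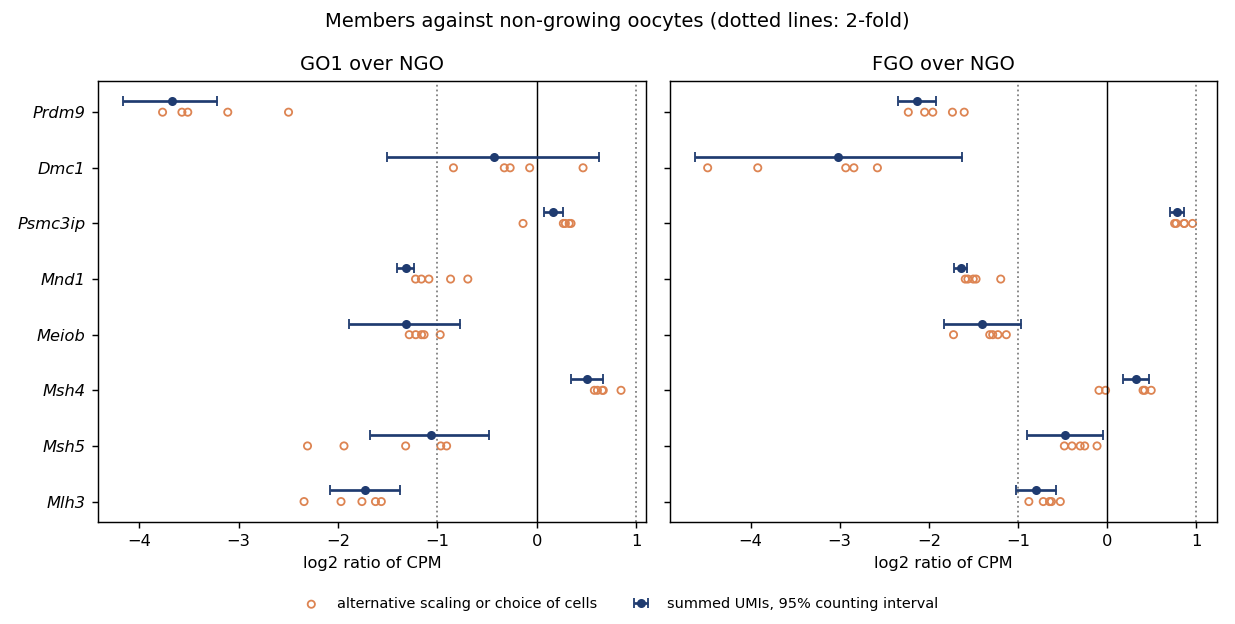
Log2 ratio of CPM in GO1 over NGO (left) and FGO over NGO (right) for the 8 members other than Spo11. Filled points with bars are the summed counts with exact 95% intervals, open points are 5 alternatives (DESeq2 and TMM scaling, cells weighted equally, 26 cells per stage, and without the 10 deepest cells), and dotted lines mark 2-fold. Prdm9 lies left of the 2-fold line in the settings drawn (with cells thinned to 20000 UMIs, not drawn, its log2 ratios were -1.32 and -0.87), and Mnd1 crosses it for GO1 over NGO but not for FGO over NGO.

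With a lower minimum of 1 CPM in the higher stage, the members at low level could be called too, 7 of the 9 members reaching it. Msh5 and Meiob were then called lower in GO1 than in NGO beside Prdm9, Mlh3 and Mnd1. This makes 5 of 7 against 27.7% of genes. Meiob joined Prdm9 and Mnd1 as lower in FGO than in NGO, 3 of 7 against 19.3%. Msh5 was called higher in GO2 than in GO1 (0.802% of genes called higher), at 2.03-fold, just past the limit. Prdm9 was called higher in FGO than in GO3 (5.47% of genes called higher). The median log2 ratio of the 8 members with over 3 UMIs was -1.19 for GO1 over NGO and -1.10 for FGO over NGO, beside -0.09 and -0.15 for all genes with over 3 UMIs. TMM scaling moved the median of all genes with 10 CPM by 0.16 for GO1 over NGO and by 0.17 for FGO over NGO, and DESeq2 size factors by 0.10 for GO1 over NGO. Such shifts are small beside the ratios of Prdm9, Mlh3 and Mnd1. They are of the size of the Psmc3ip difference between GO1 and NGO.

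**Figure D5:**
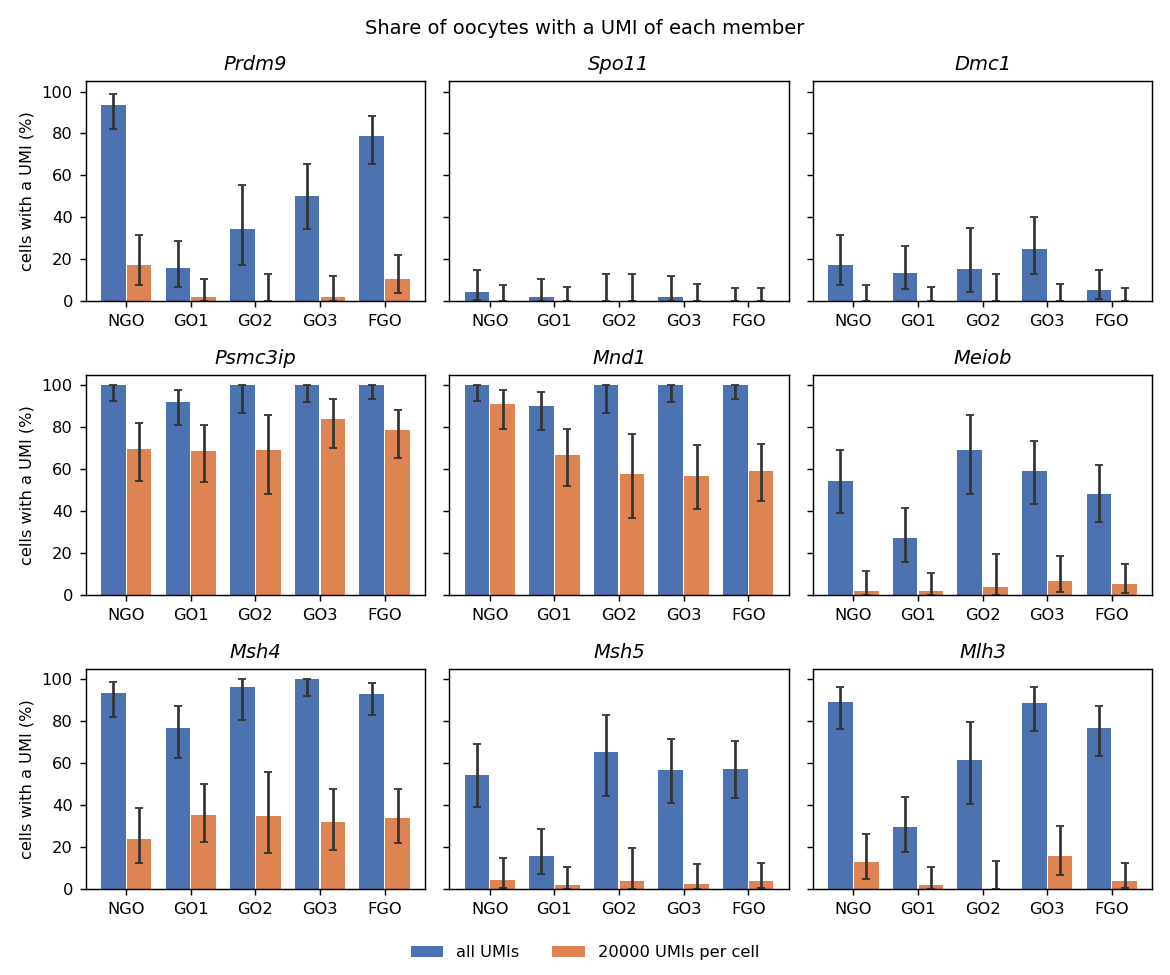
Percent of cells with at least 1 UMI of each member by stage, with all UMIs (blue) and with every cell thinned to 20000 UMIs (orange), and exact 95% binomial intervals as error bars. At full depth Prdm9 is found in 93.5% of NGO cells, 15.7% of GO1 cells and 78.6% of FGO cells, while at 20000 UMIs Mnd1 and Psmc3ip are the members found in over 50% of cells.

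An oocyte of the NGO, GO2, GO3 or FGO stage contained UMIs of a median of 6 of the 9 members, and a GO1 oocyte of 3. The GO1 cells were also the shallowest. With every cell thinned to 20000 UMIs the median was 2 members in each of the 5 stages. Mnd1 UMIs were present in 46 of 51 GO1 cells and in every cell of the other stages, Psmc3ip UMIs in 47 of 51 GO1 cells and in every other cell, and Msh4 UMIs in 39 of 51 GO1 cells and all 44 GO3 cells. Thinned to 20000 UMIs, Mnd1 was found in 42 of 46 NGO cells, 34 of 51 GO1 cells, 15 of 26 GO2 cells, 25 of 44 GO3 cells and 33 of 56 FGO cells. This is the same order of NGO above the other stages as in the CPM values.

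The other genes of the pathway were read from lists of 53 genes, of which 48 were in the table. Of these 48, 33 reached 10 CPM in GO1 or NGO and could be called, and 2 were higher and 8 lower in GO1, where 20.6% of all genes with 10 CPM were called higher and 25.7% lower. In FGO over NGO 32 could be called, and 0 were higher and 10 lower, where 11.3% of all such genes were called higher and 16% lower. Of the 6 other genes of double-strand break formation, Mei4 and Ccdc36 (IHO1), which build the complexes that activate SPO11, were higher in GO1, and Mei1 and Zcwpw1 were lower. Mei4 had 2.70, 74.1, 76.4, 29.3 and 3.51 CPM from NGO to FGO. Ccdc36 was also highest in GO2, with 15.6, 52.3, 59.8, 23.002 and 9.66 CPM. In the 3 growing stages, where Prdm9 was lowest, Mei4 and Ccdc36 were both above their NGO level. Rec114, of the same list, was not called and lay below its NGO level in every later stage. It had 62.7, 37.1, 44.2, 54.1 and 52.4 CPM from NGO to FGO. In FGO Ccdc36 was below its NGO level, and the Mei4 ratio of FGO to NGO had an interval that held 1 (1.30, 0.989 to 1.73).

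Of the 13 other strand exchange genes none was called in GO1 or FGO against NGO, and their median log2 ratios were -0.15 and -0.04. Beside them stand the 3.13-fold lower level of Mnd1 and the 1.72-fold higher level of Psmc3ip in FGO. Of the 12 other crossover genes 1700029J07Rik (SPO16) was lower in GO1 and FGO (14.6, 4.82 and 6.03 CPM in NGO, GO1 and FGO), whereas Mlh3 was called lower in GO1 only. Tex11, which binds recombination sites, was lower in FGO only (19.4, 37.9 and 7.45 CPM). Of the 14 genes of the chromosome axis and synaptonemal complex 9 could be called. Of these, 5 were lower in GO1 (Sycp1, Sycp3, Syce1, Syce3 and Smc1b), and these and Hormad1 were lower in FGO. The median log2 ratios over the list were -2.16 and -1.66. Sycp2, Syce2 and Tex12 were not called, with ratios to NGO of 1.79, 1.14 and 1.28 in GO1 and 1.49, 1.04 and 1.21 in FGO. Sycp3, a component of the axis, had 1098 CPM in NGO, 46.7 CPM after growth began (GO1) and 52.6 CPM in FGO. Smc1b, a meiotic cohesin subunit, had 659.6, 65.8, 63.4, 76.97 and 157.9 CPM and Syce1 79.8, 10.5, 7.17, 7.39 and 30.96 CPM, each low in the growing stages and partly higher in FGO, in the order also seen for Prdm9. None of the 3 other genes of meiotic entry was called, and Stra8, the retinoic acid-induced factor that starts meiosis, had 2 UMIs in NGO and none later.

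Genes with a course like that of a member were sought among 8671 genes with 10 CPM in a stage, by the root mean square difference over the 5 stages in log2(CPM + 1) after each gene's own mean was taken off. Nearest to Prdm9 were Tsen34 (0.0638), Trabd (0.0782) and Kcnk1 (0.0801), with 0.565% of the genes within 0.2. Tsen34, for example, had 26.99, 2.47, 2.40, 2.65 and 6.39 CPM. Nearest to Mnd1 were Trpc4ap (0.0475), Ptbp2 (0.0549) and Zfp94 (0.0554), with 1.52% within 0.2. Among the nearest to Mlh3 were Pts and Emc4 (4.90% within 0.2), to Psmc3ip Pqlc2, Sulf2 and Noxo1 (3.68%) and to Msh4 Dopey1, Nfatc2ip and Ptrh2 (10.3%). Prdm9 thus had fewer genes within this distance than the other 4 members, over 5 points each, and it also had the widest fold range of level. A fixed distance is not scaled to the range of a course, so the counts do not compare the members on equal terms.

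RefSeq promoter sequences were at hand for 7 of the 9 members, in 9 sequences, since Prdm9 and Mlh3 each had a pair of starts. In the 250 bases before the start, TCCCGC was found in 5 of the 9 member sequences and in 16.9% of all promoter sequences. The 5 belong to 4 members (Dmc1, Msh5, Prdm9 and Psmc3ip). CNCCTCAG was found in 2 of the 9 (Msh5 and Prdm9) and in 6.42% of all, and CACGTG (the E-box) in 0 of the 9 and in 6.02% of all. The match to CNCCTCAG before the second Prdm9 start lies 41 to 34 bases upstream and that of Msh5 82 to 75 bases upstream. Members with a TCCCGC match included genes high in NGO (Prdm9), high in FGO (Psmc3ip) and low throughout (Dmc1). Whether the match bears on the course of a member was not tested. The member sequences held a median of 13 CpG dinucleotides against 6 for all, from 4 for Msh4 to 22 for Msh5. Their median GC content was 60.8% against 52.4% for all, and the motif shares were not adjusted for this.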

How the data were processed

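Single mouse oocytes were profiled by RNA-seq with UMIs. Per the paper's methods, the authors split reads by cell barcode, aligned them to the mm9 transcriptome with TopHat, removed duplicates by UMI and deposited raw counts per gene and cell for 223 cells that passed their filters on genes, transcripts and spike-ins. Strand use in counting was not given in the sources used here. The accessibility and methylation libraries and the list of barcodes were not analysed here. Cells were picked by hand and no doublet caller was run.

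Stages were taken from the names of the cells, which give no animal and no library, so each stage was 1 pooled sample and no test was made. Counts were summed per stage and divided by the stage total (Python 3.11.15, pandas 2.3.3, scipy 1.17.1). The call rule was 2-fold with 10 CPM in the higher stage, over 5 comparisons. It was also run on simulated sums that held counting error only, with planted changes well past both limits. Those sums had no spread between cells or animals, so they do not test calls near the limits or the effect of uneven depth. Alternatives were DESeq2 1.42.0 size factors, edgeR 4.0.16 TMM factors, the mean over cells, 26 cells per stage, cells thinned to 20000 or 50000 UMIs (38 of 51 GO1 cells remain at the latter), sums without the 10 deepest cells of a stage, minimums of 1 CPM or none, and limits of 1.5-fold and 3-fold. Named genes were the 9 members, their partners or paralogs, the listed pathway genes called in GO1 or FGO against NGO, and for each member with 10 CPM the 3 genes with the nearest course. Stra8 and Rec114, listed genes that were not called, were named after their values were seen, and Mlx for its overlap with Psmc3ip. The members and lists were chosen with earlier results of these data known. Of 53 listed pathway genes, 48 matched a name in the table, and the other 5 were not analysed here. Gene positions are from GENCODE vM1 on NCBIM37, and promoter sequences from RefSeq on GRCm38.p6. Some genes of these lists are not reported here.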

Additional observations from a re-analysis of the deposited data

How the results depend on the processing

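No called difference of a member changed direction under the alternatives run. Over called and uncalled differences together, 222 of 240 recomputed log2 ratios of members kept their sign, and those that turned were all uncalled. With cells thinned to 20000 UMIs 31 of 40 kept it, but there a sum of 0 UMIs was set to 3 UMIs. Dmc1 had 0 UMIs in all 5 stages after thinning, so its thinned ratios reflect the numbers of cells only. Prdm9 and Mlh3 had 0 UMIs in GO2. The tally therefore includes ratios that were not measured. With cells thinned to 20000 UMIs, Mlh3 in FGO over GO3 went from 0.19 to -1.76 on the log2 scale, on 3 UMIs in FGO and 8 in GO3. Prdm9 in GO3 over GO2 went from 0.19 to -2.34, with 1 UMI in GO3 and 0 in GO2. The value of -2.34 came from the 3 UMIs put in for GO2, so it gives no direction. The Prdm9 difference from NGO shrank under thinning, from -3.67 to -1.32 in GO1 and from -2.13 to -0.87 in FGO. These thinned values rest on 9 UMIs in NGO, 4 in GO1 and 6 in FGO, and the 4 GO1 UMIs all lay in 1 cell. The number of members called in GO1 over NGO was 3, and became 0 with cells thinned to 20000 UMIs and 5 with a minimum of 1 CPM or none. In FGO over NGO it was 2, and became 1 with thinned cells, 4 at the 1.5-fold limit and 5 with no minimum, where Spo11 counted with 3 UMIs against 0. In GO2 over GO1 it was 0, and became 1 without the 10 deepest cells, 1 at 1 CPM and 2 with no minimum. In GO3 over GO2 it was 0, and 1 with no minimum, and in FGO over GO3 0, and 1 at 1 CPM and 2 with no minimum. For the 48 pathway genes, 10 were called in GO1 over NGO, against 17 with cells weighted equally, 21 with thinned cells, 18 without the 10 deepest cells, 16 with no minimum and 23 at 1.5-fold. In FGO over NGO 10 were called, against 18 with no minimum and 6 at 3-fold. Members with a UMI in at least 50% of cells numbered 7 (NGO), 3 (GO1), 6 (GO2), 7 (GO3) and 6 (FGO). Thinned to 20000 UMIs, they numbered 2 in NGO, GO2, GO3 and FGO, and thinned to 50000 UMIs 4 in NGO and 3 in GO2, GO3 and FGO.

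The share of higher genes among all called genes was 44.5% in GO1 over NGO, against 50.1% with DESeq2 size factors, 53.2% with TMM scaling and 36.5% without the 10 deepest cells. It was 41.4% in FGO over NGO and 56.8% with TMM scaling. In GO2 over GO1 it was 3.46%, against 14.6% with DESeq2 size factors, 25.2% with cells weighted equally, 36.01% with thinned cells and 53.4% without the 10 deepest cells. It was 76.8% in GO3 over GO2, against 59.2% with DESeq2 size factors and 66.8% with TMM scaling. No paired analysis was possible because each stage is 1 pooled sample and the cells carry no replicate number. Intervals cover counting error only, so the spread between animals is unknown. The deepest GO1 and GO2 cells weigh heavily in the summed counts. Dmc1 and Spo11 were too sparse at this depth for an order of stages.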
